A study of Mus musculus with 6 samples.

Results

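Ribosome biogenesis and growth genes that are known targets of Myc were described in metastases to the lung from mouse MMTV-Myc tumours. The MMTV promoter drives the Myc oncogene mainly in mammary epithelium. The list named 32 genes for nucleolar proteins, rRNA processing, translation, nucleotide synthesis and protein folding. Probe sets annotated with a member symbol alone were taken from the value table, and the brightest one by mean signal over the arrays stood for the gene. This gave a value for 30 of the 32 genes, among 12393 genes with a single symbol. No probe set carried the symbol Dkc1 or Impdh2 in the annotation used here. All 30 members passed the filter on dim probe sets.

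The series held 6 Affymetrix arrays of FVB mice, all carrying the Myc transgene. By their labels, 3 carried an E2F2 knockout (KO) and the other 3 were E2F3 heterozygous (Het). The sources used here gave no ages. Myc metastases without an E2F mutation were not analysed here. The titles of the 3 Het arrays share a number that may mark 1 mouse, with the suffixes LM2, LM1 and LM3 for Het replicates 1, 2 and 3, whereas the 3 KO titles carry different numbers. If so, genotype and mouse of origin cannot be told apart, and the spread among Het arrays is that of metastases within an animal.

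Ribosomes are built in the nucleolus. RNA polymerase I makes a long precursor, small nucleolar ribonucleoproteins (snoRNPs) guide its chemical modification, and assembly factors fold and cut it into the rRNAs of the small and large subunits. Myc binds E-box sequences and is known to raise transcription of many of these genes, together with genes that supply nucleotides, translation factors and chaperones to growing cells.

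The canonical E-box that Myc binds with Max has the letters CACGTG, which read the same on both strands. It was searched in RefSeq promoters of build GRCm38.p6, each reaching from 250 bases before a gene's start to 50 bases after it. Of the 28 member genes in that table, 9 held at least 1 match (32.1%), against 8.09% of all 27025 genes. By window, 10 of 34 held one (29.4%), against 7.15% of 32851. The members were listed as known targets of Myc, so these shares are no evidence from these data that Myc binds them. Some of the sites are printed with their surroundings, and the capitals mark the E-box:
Hspd1: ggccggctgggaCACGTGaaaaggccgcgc
Nop2: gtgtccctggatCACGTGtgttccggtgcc
Eif4a1: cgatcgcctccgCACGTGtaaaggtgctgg
Nme1: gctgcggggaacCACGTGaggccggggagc
Pes1: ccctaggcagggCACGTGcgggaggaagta
Wdr43: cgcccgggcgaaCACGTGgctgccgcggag
Eif4e: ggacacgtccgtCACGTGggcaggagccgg

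Each line is read 5′ to 3′ on the strand of the gene. The Hspd1 site (chr1:55088306-55088335, minus strand) begins its E-box 80 bases before a start of the gene and lies inside Hspe1, which runs the other way from a neighbouring start. The Nop2 E-box (chr6:125131811-125131840, plus strand) begins 60 bases before the start and that of Eif4a1 (chr11:69672595-69672624, minus strand) 189 bases before it. The Nme1 E-box printed here (chr11:93968273-93968302, minus strand) begins 18 bases before a start of the gene. In Pes1 (chr11:3963965-3963994, plus strand) and Wdr43 (chr17:71616220-71616249, plus strand) the E-box begins at bases 3 and 18 of the transcript. The Eif4e site (chr3:138527192-138527221, plus strand) begins 64 bases before a downstream start of the gene. Mybbp1a and Impdh2 also held a match, at base 41 of the transcript and 110 bases before a start. Eif4e held a further one 228 bases before the same start, and Nme1 held one 29 bases before another start. A match is a stretch of letters and not a measured binding site. Among measured members, the 8 with a match had a median log2 difference between the groups of 0.05 and the 18 without one of -0.06. Of the 8, 6 were higher in KO, and of the 18, 7 were, where 47.7% of all probe sets tested were. The signs of Hspd1, Nop2, Pes1 and Wdr43, all with a match, turned when single arrays were left out, as did those of several members without one. Nothing about the E-box is read from these counts. The other 4 measured members, Npm1, Fbl, Bop1 and Rrp12, had no promoter in that table and are in neither group; all 4 were higher in KO.

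The members differed little between the genotype groups. Of the 30 genes, 17 were higher and 13 lower in KO by their group means, where 47.7% of all probe sets tested were higher. Their median difference of KO minus Het was 0.03 on the log2(signal + 16) scale, against -0.02 over all 13576 probe sets, and the differences ran from -0.29 for Mybbp1a to 0.52 for Nop58. Its sign changed when KO replicate 3 (-0.07, with 11 of 30 higher) or Het replicate 3 (-0.003, with 14 higher) was left out. A difference of at least 0.5 in size was seen for 2 of the 30, Nop58 and Nme1, against 12% of all probe sets.

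No member passed. In the limma fit of 3 KO samples against the mean of the Het arrays as 1 sample, 0 of 30 members had a Benjamini-Hochberg adjusted p under 0.05, and every member was at 0.9999. The same fit called 0% of all 13576 probe sets, and 2.25% (305) had an unadjusted p under 0.05, 1 member, Nme1, among them. That fit leaves out the spread of Nme1 among the Het arrays, whose log2 SD was 0.47 against 0.06 in KO. With each array as a sample, limma again called 0%, with 10.3% at an unadjusted p under 0.05, Nop58, Eif4a1 and Nme1 among them. Where arrays sharing a title number formed a random block, it called 0% as well, with 4.92% at an unadjusted p under 0.05, and there the 1 member was Nop58 and not Nme1. Without Het replicate 2 the 1 member under that limit in the fit against the averaged Het sample was Eif4a1. Such p-values reflect the spread of these samples alone, and that spread may be technical.

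For 7 of the 30 members, KO and Het arrays did not overlap (23.3%), against 16.8% of all probe sets. Ncl, Npm1, Nop58 and Eif4a1 were higher in every KO array than in any Het array, where 7.87% of all probe sets were. Rrp9, Mybbp1a and Pa2g4 were lower in every KO array, where 8.89% of all probe sets were. The count was 12 without KO replicate 1, where 26.9% of all probe sets did not overlap, and 11 without KO replicate 3, where 36.7% did not. Nothing particular to the members is read from these shares.

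**Figure D1:**
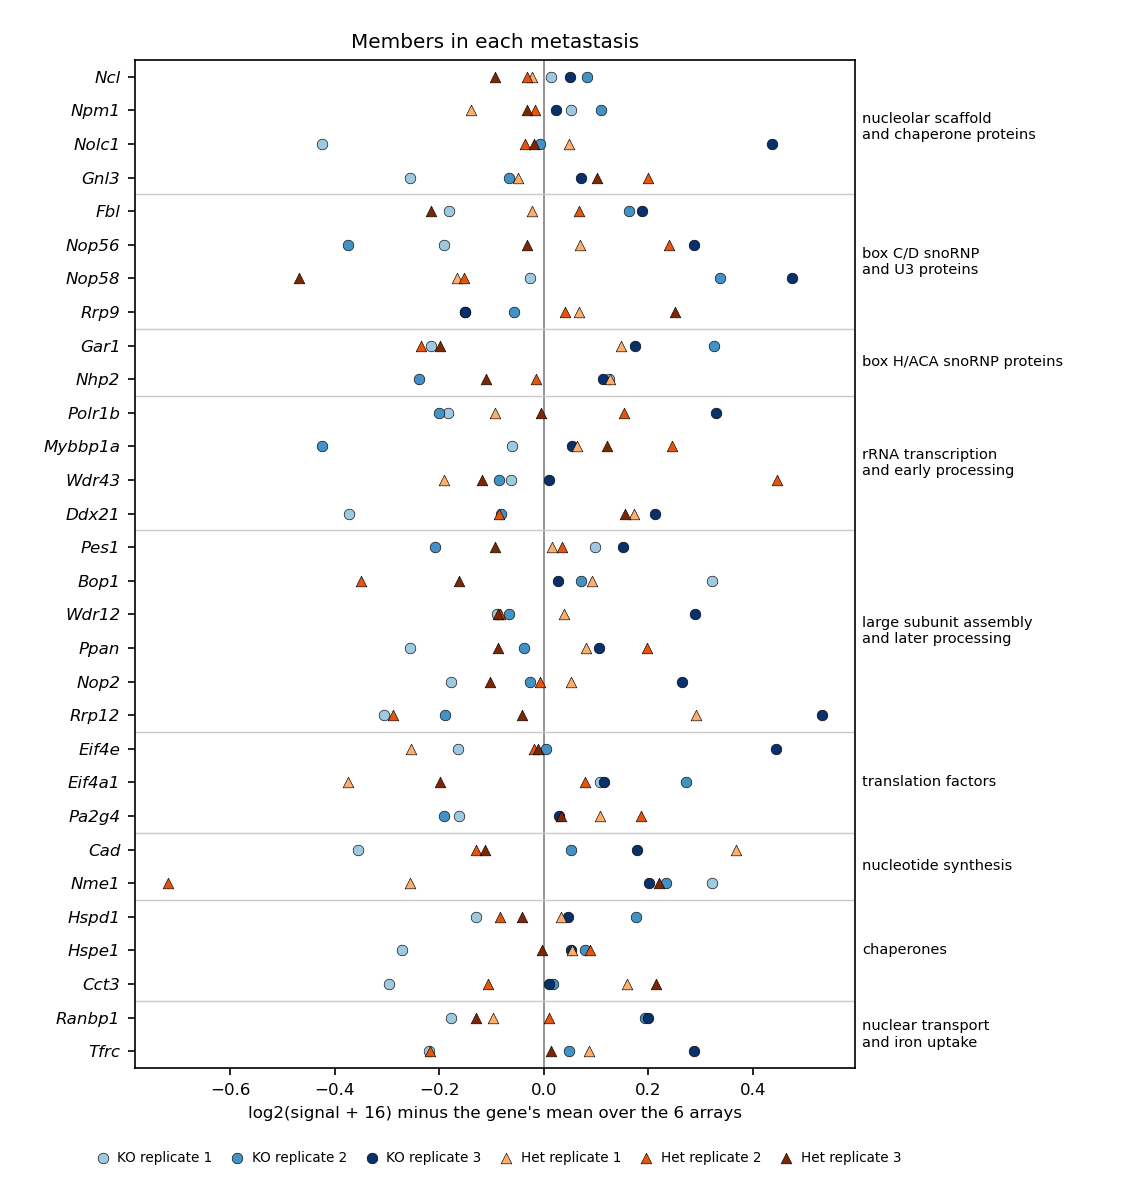
Log2(signal + 16) of each measured member in each metastasis, as the deviation from the gene's mean over the 6 arrays (x axis), with members on the y axis by role; circles are KO and triangles Het arrays. KO replicate 3 (dark circles) lies to the right of 0 for 29 of 30 members and KO replicate 1 (pale circles) for 7.

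The larger contrast lay within the KO group. KO replicate 3 had the highest signal of the 6 arrays for 13 of the 30 members, against 18% of all probe sets, and KO replicate 1 had the lowest for 13, against 21.8%. Signal was higher in KO replicate 3 than in KO replicate 1 for 25 of the 30 members, where 50.4% of all probe sets were. The 5 exceptions were Npm1, Rrp9, Nhp2, Bop1 and Nme1. Without Het replicate 1, KO replicate 3 was highest for 14 members and KO replicate 1 lowest for 14. The median deviation of the members from their mean over the arrays was -0.17, -0.001 and 0.16 in KO replicates 1, 2 and 3 and 0.05, -0.02 and -0.04 in Het replicates 1, 2 and 3. All Het medians thus lay between the lowest and highest KO values, and with 3 arrays a group this order has no test. These counts treat genes that may move together and are descriptions of 6 arrays.

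Of 121 other ribosome biogenesis genes listed, 101 were measured, and they were spread over the arrays in a like way. Their median deviation was -0.13, -0.06 and 0.17 in KO replicates 1, 2 and 3 and between -0.03 and 0.03 in the Het arrays. Of the 101, 76 were higher in KO replicate 3 than in KO replicate 1, where 50.4% of all probe sets were. Between the groups, 41 were higher and 60 lower in KO, with a median of -0.06 and 0 called by limma. The arrays did not overlap for 16 of them (15.8%), against 16.8% of all probe sets. Those with the largest moderated statistic on the lower side were Tcof1, which encodes treacle, a nucleolar factor of rRNA transcription (-0.46, SE 0.24), Wdr46 (-0.59, SE 0.33), Tbl3 (-0.41, SE 0.23) and Noc2l (-0.49, SE 0.30). On the higher side stood Nle1, a factor of large subunit maturation (0.42, SE 0.24), Imp3 of the U3 particle (0.30, SE 0.20), Exosc4 of the RNA exosome (0.52, SE 0.35) and Rrp7a (0.35, SE 0.24). Each had a limma adjusted p of 0.9999. Tcof1 had 448, 370.08 and 403 in KO and 519, 634 and 551 in Het arrays, with both of its dimmer probe sets lower as well (-0.46 and -0.53). Imp3 had 2307, 2097 and 2244 in KO and 1719, 1861 and 1797 in Het arrays. The groups did not overlap for either gene, as for 16.8% of all probe sets.

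Markers of lung tissue ran the other way across the KO metastases, but the Het ones did not follow this. Het replicate 1 had the highest Het median for the alveolar and endothelial markers and also for the members (0.05). The 12 lung alveolar markers measured of 13 listed had a median deviation of 1.60 in KO replicate 1, 0.43 in KO replicate 2 and -1.11 in KO replicate 3, and were at 0.44, -0.71 and -0.41 in Het replicates 1, 2 and 3. Their summed signal ran from 22932 to 87503 in KO and from 33124 to 49745 in Het arrays. The 9 endothelial markers were at 0.77, 0.23 and -0.51 in the KO replicates and at 0.31, -0.36 and -0.28 in Het replicates 1, 2 and 3. Their summed signal was 1520.3 to 3681 in KO and 1691 to 2572 in Het arrays. The fibroblast markers (6 of 7 measured above the filter) summed to between 5361 and 8373 in KO and between 4719 and 4856 in Het arrays, and the leukocyte markers (6 of 9) to between 6557 and 17405 and between 9071 and 12579. Of the 6 fibroblast markers, 4 were higher in every KO array than in any Het array, where 7.87% of all probe sets were. No marker was at a signal of 0 on any array. All 12 alveolar and all 9 endothelial markers were lower in KO replicate 3 than in KO replicate 1. The 14 luminal and epithelial markers were not shown here to be confined to tumour cells. They were at -0.09, -0.28 and 0.05 in the KO replicates and at 0.09, 0.35 and 0.07 in Het replicates 1, 2 and 3. Single markers ran from -2.46 to 0.50 in KO replicate 1. Their sums were 86463 to 103102 in KO and 101347 to 111273 in Het arrays. The 11 of 12 proliferation markers measured were at -0.24, 0.14 and 0.10 in KO and at 0.01, 0.08 and -0.06 in Het arrays. The part of these markers in the members' order was not tested, and in such bulk samples fewer cells of a type and less RNA per cell cannot be told apart.

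**Figure D2:**
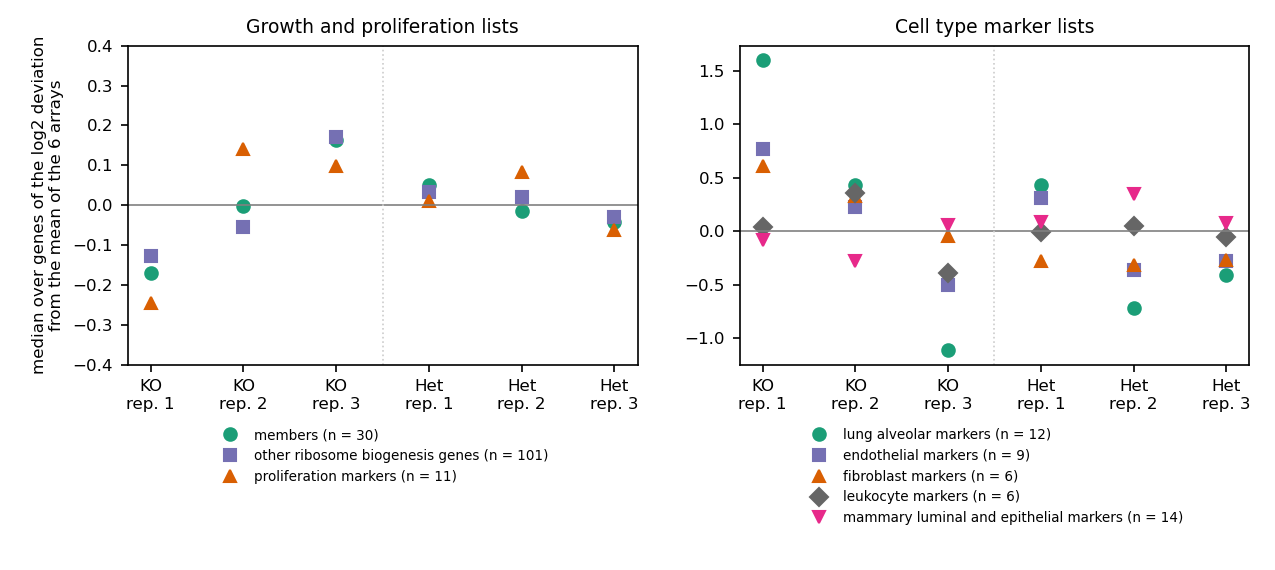
Median over the genes of each list of the log2 deviation from the mean of the 6 arrays (y axis; the panels have different scales), for each metastasis (x axis). Members are at -0.17 in KO replicate 1 and 0.16 in KO replicate 3, and alveolar markers are at 1.60 and -1.11 there.

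Among nucleolar scaffold and chaperone proteins, Ncl encodes nucleolin, which binds nascent rRNA. Its signal was 12689.5, 13321 and 13009 in KO and 12377, 12289.6 and 11788 in Het arrays. The KO arrays were all higher, but by a log2 difference of 0.10 (SE 0.12). The other 3 probe sets of Ncl went both ways, at 0.31, -0.26 and -0.53. Npm1, the histone and ribosome chaperone nucleophosmin, had 16881, 17559.8 and 16536 in KO and 14781, 16086 and 15916 in Het arrays. Its difference was 0.12 (SE 0.11), and its dimmer probe set stood at 0.22. Nolc1, a phosphoprotein that carries snoRNPs in the nucleolus, had 1506, 2016 and 2749 in KO and 2096, 1974 and 1999 in Het arrays. The KO arrays of Nolc1 thus spanned both sides of a narrow Het group, with a difference of 0.005 (SE 0.36). Gnl3, the GTPase nucleostemin, had 2677, 3054 and 3365 in KO and 3094, 3676 and 3434 in Het arrays, which overlapped at -0.17 (SE 0.21).

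The box C/D snoRNPs methylate rRNA. Their methyltransferase fibrillarin (Fbl) was at 0.11 (SE 0.22) and the core protein gene Nop56 at -0.18 (SE 0.29). Nop58, which encodes the partner of Nop56 in the same particle, had the largest difference of the members. Its signal was 1464, 1888 and 2079 in KO and 1327, 1339 and 1073 in Het arrays, or 1811 ± 314.97 against 1247 ± 150.03 (SD, n = 3 arrays each). The lowest KO array lay just above the highest Het array, and the log2 difference was 0.52 (SE 0.27), between 0.42 and 0.67 when single arrays were left out. Nop56 had 3191, 2806 and 4451 in KO and 3824, 4304 and 3564 in Het arrays, where the KO arrays reached both above and below all Het arrays. Its dimmer probe set was at 0.02, and the brightest was at -0.04 without KO replicate 2. Rrp9, a protein of the U3 particle that starts precursor cleavage, had 347, 372 and 347 in KO and 406, 399 and 464 in Het arrays, a difference of -0.24 (SE 0.23).

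The box H/ACA snoRNPs convert uridine to pseudouridine, and their catalytic subunit is encoded by Dkc1, which had no value here. Gar1 had 1891, 2758 and 2483 in KO and 2436, 1867 and 1914 in Het arrays, which overlapped (0.19, SE 0.27). Nhp2 had 6739, 5232 and 6683 in KO and 6745, 6116 and 5725 in Het arrays, with a difference of -0.001 (SE 0.21). KO replicate 2 was the highest array for Gar1 and the lowest for Nhp2.

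All 4 members of rRNA transcription and early processing had lower group means in KO, with differences of -0.04 (SE 0.30) for Polr1b, the second largest subunit of RNA polymerase I, -0.09 (SE 0.21) for Wdr43, -0.16 (SE 0.30) for the helicase gene Ddx21 and -0.29 (SE 0.25) for Mybbp1a, a nucleolar regulator of rRNA synthesis. Ddx21 had 848, 1041 and 1282 in KO and 1245, 1038 and 1231 in Het arrays, and its KO arrays lay on both sides of the Het arrays. Without KO replicate 1 its difference was -0.015. Mybbp1a had 3225, 2503 and 3493 in KO and 3517, 3989 and 3657 in Het arrays. KO replicate 3 lay just below Het replicate 1, so the groups were barely apart. The difference was -0.15 without KO replicate 2 and the dimmer probe set was at 0.04. The sign for Polr1b turned positive without KO replicate 1 (0.045), KO replicate 2 (0.054) or Het replicate 2 (0.030). That of the brightest Wdr43 probe set did so without Het replicate 2 (0.11), whose signal of 1959.55 stood above the 1254 to 1445 of the other arrays. The dimmer Wdr43 probe set was at -0.35, with 943, 1302 and 1199.5 in KO and 1363, 1416 and 1603 in Het arrays. Every KO array was lower there, as for 8.89% of all probe sets.

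Large subunit assembly runs through the complex of Pes1, Bop1 and Wdr12. Bop1 had 1232, 1033 and 1002 in KO and 1048, 767 and 876 in Het arrays, a difference of 0.28 (SE 0.24) that was 0.18 without Het replicate 2. Pes1 and Wdr12 were at 0.03 (SE 0.24) and 0.09 (SE 0.26). Pes1 had 1686, 1361 and 1750.48 in KO and 1592, 1613 and 1473 in Het arrays. KO replicate 1 was the highest array for Bop1 and the lowest for Wdr12, so the 3 partners did not share an order over the arrays. Ppan was at -0.13 (SE 0.25), the rRNA methyltransferase gene Nop2 at 0.04 (SE 0.27) and Rrp12, a factor of subunit export, at 0.03 (SE 0.40). Rrp12 had 209.8, 229 and 388 in KO and 325, 213 and 255 in Het arrays, a 1.85-fold span that lay within the KO group.

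Of the translation factors, Eif4a1 encodes the helicase that unwinds mRNA for the ribosome. Its signal was 11675, 13090.3 and 11742 in KO and 8350.07, 11451 and 9436 in Het arrays. Every KO array was higher, though by little against Het replicate 2, and the difference was 0.33 (SE 0.14), falling to 0.23 without Het replicate 1. Its dimmer probe sets were at 0.48 and 0.08. The brightest and the one at 0.48 were lowest in Het replicate 1 (8350.07 and 6092), the array that stood apart in control signals described below. Eif4e, the cap-binding factor, was at 0.19 (SE 0.28) and at 0.02 without KO replicate 3, where its signal was 3710.2. Pa2g4, which encodes the ribosome-associated protein EBP1, had 2396, 2348 and 2739 in KO and 2893, 3054 and 2745 in Het arrays on its brightest probe set (-0.22, SE 0.20). The groups lay just apart there. The other 4 of its 5 probe sets were at 0.63, -0.36, -0.63 and 0.88, the last of these on a probe set too dim for the filter, so no direction is given for Pa2g4.

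Nme1, a nucleoside diphosphate kinase that balances nucleotide pools, had 9076, 8534 and 8348 in KO and 6072, 4401 and 8455 in Het arrays. The KO arrays were close together, whereas Het replicate 3 reached the KO level, so the groups overlapped on this brightest probe set. The difference was 0.50 (SE 0.14), 0.27 without Het replicate 2 and 0.74 without Het replicate 3. The dimmer probe set of Nme1 was at 0.39, with 4560, 4308 and 4511 in KO and 4061, 2882 and 3371 in Het arrays. Every KO array was higher there, as for 7.87% of all probe sets. The name of the brightest probe set carries the x suffix that Affymetrix gives to probes which can match other transcripts, and how much of the signal came from the near-identical neighbour Nme2 cannot be told. Cad, which encodes the enzyme of the first steps of pyrimidine synthesis, was at -0.08 (SE 0.29), with its dimmer probe set at -0.42. It had 636, 849.61 and 929.62 in KO and 1062, 747 and 757 in Het arrays, so its lowest array was a KO and its highest a Het one.

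Hspd1 and Hspe1 encode the mitochondrial chaperonin and its lid and are transcribed in opposite directions from neighbouring starts. On their brightest probe sets both were lowest in KO replicate 1, with signals of 9881 and 5196. The other 5 arrays ran from 10213 to 12222 for Hspd1 and from 6255 to 6670.2 for Hspe1. The dimmer probe set of Hspe1 was instead lowest in Het replicate 2 (1494, against 1616 in KO replicate 1), with a group difference of 0.20. On the brightest probe sets the differences were 0.06 (SE 0.16) for Hspd1 and -0.09 (SE 0.20) for Hspe1. Cct3, a subunit of the cytosolic chaperonin, was also lowest in KO replicate 1 and stood at -0.18 (SE 0.18). Its 5 dimmer probe sets ran from -0.46 to 0.19, the highest of them on a probe set too dim for the filter. Of all 6, 4 were lower and 2 higher in KO. The next brightest, at -0.33 and -0.46, were lower in every KO array than in any Het array, where 8.89% of all probe sets were. The brightest probe set of Cct3 also carries the x suffix.

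Ranbp1, a regulator of nuclear transport, was at 0.14 (SE 0.22), with the highest signal, 5626, in KO replicate 3. Tfrc, the transferrin receptor that brings iron into dividing cells, gave values that depended on the probe set. On the brightest it had 6550.25, 7893 and 9312 in KO and 8097, 6560 and 7701 in Het arrays, which overlapped (0.08, SE 0.22). The next probe set had 1375, 1659 and 2946 in KO and 427, 2030 and 896 in Het arrays, a log2 difference of 1.02. All 5 dimmer probe sets, the 3 control ones among them, were lowest in Het replicate 1, and their differences of 0.88 to 1.28 fell to between 0.29 and 0.48 without that array. The groups overlapped on each of the 6 probe sets with and without it.

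**Figure D3:**
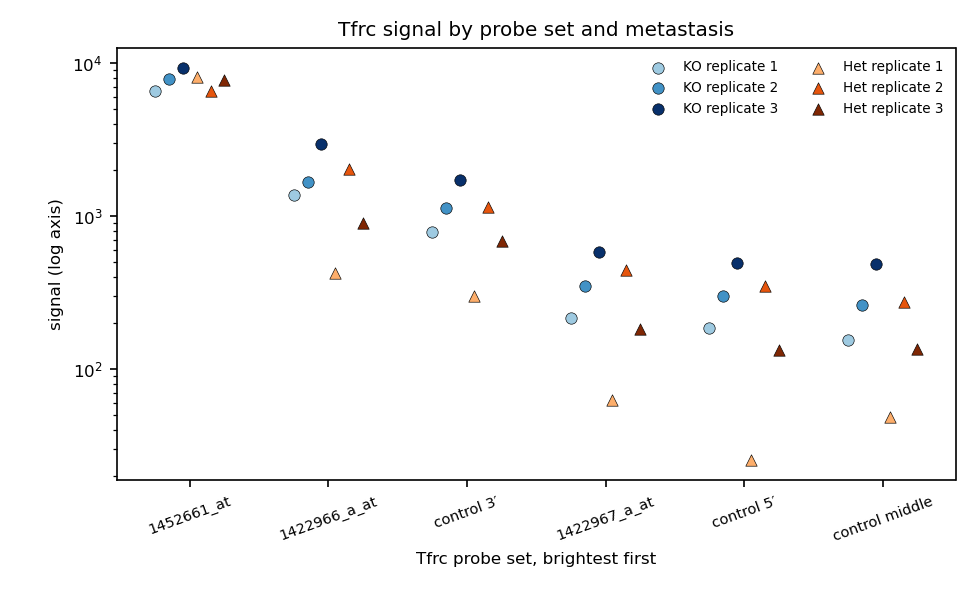
Signal of each Tfrc probe set (y axis, log scale) in each metastasis, with probe sets ordered by brightness along the x axis; circles are KO and triangles Het arrays. Het replicate 1 reads 8097 on the brightest probe set and 25.4 on the 5′ control one, the lowest of the 6 arrays there.

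Het replicate 1 also stood apart in control signals beside this result. Its ratio of 3′ to 5′ signal was 11.8 for the Tfrc control, against 3.25 to 5.15 on the other arrays, and 2.38 for actin, against 1.48 to 1.73. For the spiked thr control the ratio was 3.85, with Het replicate 3 next at 2.24 and the remaining arrays at 1.48 to 1.82. For Gapdh it was 0.93, little above the 0.75 to 0.90 of the other arrays. On the 3′, middle and 5′ control probe sets for 18S rRNA, Het replicate 1 had signals of 1066, 703 and 431. The other arrays ran from 108.7 to 290.6, 72.9 to 203 and 60.9 to 163 there. These control signals are not read as a measure of rRNA made by the cells. The part of these control values in the Tfrc and Eif4a1 differences was not tested. Without Het replicate 1, the median difference of the 30 members was 0.08, with 19 higher in KO.

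**Figure D4:**
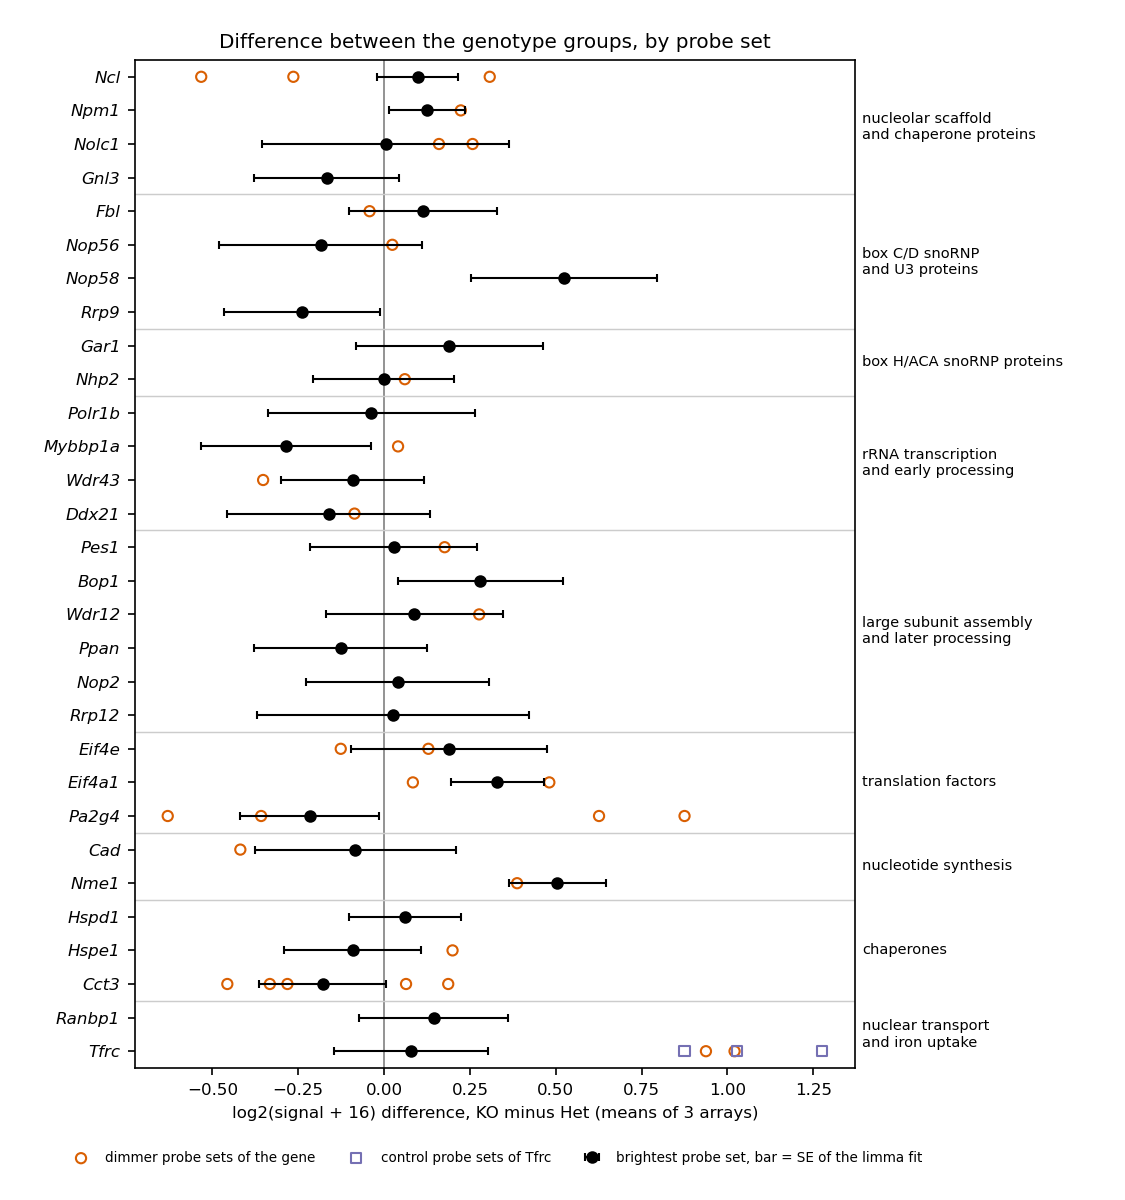
Log2 difference of KO minus Het (x axis) for each member (y axis, by role): filled points are the brightest probe sets with the SE of the limma fit, open circles the dimmer probe sets and squares the Tfrc controls. Probe sets of a gene fall on both sides of 0 for 9 of the 19 members with several, and the 6 of Tfrc run from 0.08 to 1.28.

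Agreement between probe sets set a limit on single members. Of the 30, 19 had several probe sets without the controls, and for 9 of these the group differences went in both directions. Ncl, Pa2g4, Cct3 and Tfrc had probe sets more than 0.5 apart. The highest array exceeded the lowest by 1.13-fold for Ncl to 2.06-fold for Nme1, with a median of 1.42-fold over the members. The SD of the log2 values was larger among the KO than among the Het arrays for 22 of the 30 members (73.3%), against 59.6% of all probe sets. The median SD of the members was 0.21 in KO and 0.13 in Het arrays, and over all probe sets it was 0.22 and 0.18.

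Myc itself, measured by 1 probe set, had 10662, 10869.9 and 13138 in KO and 11302, 13277 and 13558 in Het arrays. The transgene and the mouse's own gene cannot be told apart on this array. Its group difference was -0.14 (SE 0.17, limma adjusted p = 0.9999).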

How the data were processed

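RNA of 6 lung metastases was measured on Affymetrix arrays. The deposited values were intensity signals of 22690 probe sets on a linear scale, made by the authors with MAS5 and Affymetrix Expression Console, per the submitters' processing notes. Their versions and the genome build are not given in the sources used here. Detection calls were not used here. Every array had a 2% trimmed mean of about 500.2, so the arrays had been scaled to a common level, and such scaling hides a change in total RNA.

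Signals were taken as log2(signal + 16). The 64 control probe sets and the 40% dimmest were left out, which left 13576. Limma 3.58.1 in R 4.3.3 (lmFit, eBayes with a mean-variance trend) compared 3 KO samples with the mean of the Het arrays as 1 sample, assumed to vary like the KO samples, with Benjamini-Hochberg adjustment over all probe sets. The SD is over 3 arrays and the SE is from the fit. Even if each of the 3 arrays in each group were a separate sample, the smallest p of an exact test would be 0.1. Nothing in the labels says that samples came from separate animals.

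The code was tested on simulated data. Replicates were numbered by accession order. Members and gene lists were chosen with earlier results of these data known. Members were given by role, in full where the difference was largest in its role or arrays did not overlap, or where probe sets or arrays disagreed. At most 4 other ribosome biogenesis genes were named in each direction, by moderated t. A count of protein motifs was planned and not done. Alternatives changed the replicate unit, pseudocount, filter, scaling, probe set choice and arrays. Leaving out Het replicate 1 from the array medians, and single arrays from the overlap counts, was chosen after seeing the data.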

Additional observations from a re-analysis of the deposited data

How the results depend on the processing

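No setting gave a call: limma's adjusted p stayed above 0.05 for all 13576 probe sets and under each alternative, while 157 to 959 had an unadjusted p under 0.05 when single arrays were left out. The median difference of the members ran from -0.07 without KO replicate 3 to 0.12 without KO replicate 1, and that of the other ribosome biogenesis genes from -0.11 to 0.03. Members whose arrays did not overlap numbered 8 to 12 when single arrays were left out, while the share over all probe sets was 23.1% to 36.7%.

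Quantile normalization turned the sign of Nhp2 (0.018) and Rrp12 (-0.037). The mean over all probe sets of a gene turned Ncl (-0.10), Nhp2 (0.030), Pa2g4 (0.059) and Hspe1 (0.054). Leaving out single arrays turned the sign of 12 members and left that of 18. The ranges were -0.21 to 0.22 for Nolc1, -0.064 to 0.12 for Nhp2, -0.21 to 0.054 for Polr1b, -0.21 to 0.11 for Wdr43, -0.040 to 0.14 for Pes1 and -0.034 to 0.16 for Wdr12. They were -0.082 to 0.14 for Nop2, -0.23 to 0.18 for Rrp12, -0.19 to 0.079 for Cad, -0.011 to 0.14 for Hspd1, -0.15 to 0.020 for Hspe1 and -0.046 to 0.21 for Tfrc. Of the members that kept their sign, Gnl3 ran from -0.25 to -0.08, Fbl from 0.03 to 0.23, Nop56 from -0.38 to -0.04, Gar1 from 0.07 to 0.34, Ddx21 from -0.31 to -0.015, Ppan from -0.21 to -0.03, Eif4e from 0.02 to 0.32, Cct3 from -0.28 to -0.08 and Ranbp1 from 0.08 to 0.27. The cause was not tested. No paired analysis was made, because the labels pair no KO array with a Het array. The number that may mark the mouse of the Het arrays is in no KO title, and replicates were numbered by accession order.

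The number of arrays limits the precision: the SE of the members ran from 0.11 to 0.40, larger than most of their differences.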
